A study of Mus musculus with 8 samples.

Results

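The 32 genes examined here encode SR proteins and the factors that work with them at the start of splicing. They were taken by symbol from 55335 genes in the count table, by a rule with no threshold on measured values, although earlier results of these data were known when the set was drawn up, and all 32 were among the 16504 genes with enough counts to be tested. Gene-level RNA was measured by poly(A) RNA-seq in E14 ESCs, a mouse embryonic stem cell line, in 4 groups of 2 biological replicates. Control cells carried the non-targeting shRNA labelled NG, and the others carried shRNAs against Sox2 (Sox2-KD), Hnrnpk (hnRNPK-KD) or Cdk9 (Cdk9-KD). Every group, the control included, received its shRNA from a lentiviral vector, was selected in puromycin and was described as grown with serum, LIF and 2i. Each knockdown was by infection of a selected cell population, and which shRNA sequence went into which library was not given in the sources used here. Nothing beyond the term biological duplicates says how separate the 2 cultures were, so that p-values measure the spread between these libraries.

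SR proteins carry RNA-binding domains and a tail rich in arginine and serine, bind exons and recruit the splicing machinery to nearby splice sites. Kinases of the SRPK family phosphorylate this tail in the cytoplasm and those of the CLK family in the nucleus, which governs where SR proteins reside and how they act. U2AF recognises the 3' splice site and SF3B1 holds the U2 snRNP at the branch point, whereas LUC7-like proteins and RBM25 work with the U1 snRNP at the 5' splice site. Many of these genes regulate their own output: the protein promotes inclusion of a poison exon or retention of an intron in its own transcript, and the resulting RNA is degraded by nonsense-mediated decay (NMD) or held in the nucleus.

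Poison exons are shown for 5 SR and Tra2 genes because the gene-level counts used below add up productive and NMD transcripts and cannot separate them. Each is an internal exon that holds the stop codon of an annotated NMD transcript and overlaps no exon of a protein-coding transcript (GENCODE vM21, GRCm38). The stretch from the first base of the exon to the stop codon is given 5′ to 3′ on the strand of the gene, in lower case with the in-frame stop codon in capitals.
Srsf3 (chr17:29039454-29039909, + strand): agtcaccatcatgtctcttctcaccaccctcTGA
Srsf7 (chr17:80204622-80205081, - strand): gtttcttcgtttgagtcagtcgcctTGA
Srsf9 (chr5:115328347-115328704, + strand): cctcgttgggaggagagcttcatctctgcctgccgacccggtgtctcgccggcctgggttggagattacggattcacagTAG
Tra2a (chr6:49252803-49253108, - strand): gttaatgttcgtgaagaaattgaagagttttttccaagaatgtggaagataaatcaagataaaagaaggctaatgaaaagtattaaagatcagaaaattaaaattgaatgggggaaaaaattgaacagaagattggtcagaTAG
Tra2b (chr16:22258865-22259261, - strand): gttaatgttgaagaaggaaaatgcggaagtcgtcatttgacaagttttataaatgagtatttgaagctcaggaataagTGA

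Srsf4, with an exon of 207 bases, and Srsf11, with exons of 117 and 109 bases, also have such exons, and Tra2b has a second form, which are not shown. The exons shown are 456 bases long in Srsf3, 460 in Srsf7, 358 in Srsf9, 306 in Tra2a and 397 in Tra2b, and the stop codon ends 34, 28, 82, 144 and 81 bases into them. The translated stretches of Tra2a and Tra2b share their first 9 bases and have a GC content of 29.2% and 33.3%, against 61.0% in Srsf9. Such exons were annotated in 13 of the 32 genes (40.6%), which together held 20 of them, against 7.38% of the 13527 protein-coding genes tested. Of the 32 genes, 29 (90.6%) had at least 1 annotated NMD transcript, against 27.6% of the protein-coding genes tested, and 30 (93.8%) had a retained-intron transcript, against 56.8%. Srsf10, Ddx39b and Acin1 were those without an NMD transcript. The genes also have more annotated transcripts, a median of 10 against 5, so that they had more chances to hold one of each kind. Among the 5739 protein-coding genes at least as abundant as the least abundant of the 32, the shares were 32.6% with an NMD transcript and 9.17% with a poison exon.

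Library totals ran from 16709201 to 17719366 counts. Sox2 itself stood at 412 and 530 CPM (counts scaled to a common library size) in control and at 320 and 283 in Sox2-KD E14 ESCs (replicates 1 and 2 in this order, here and below), a log2FC of -0.64 with an adjusted p of 0.048. Cdk9 stood at 109 and 129 CPM in control and at 73.0 and 53.1 in Cdk9-KD, which was lower in both libraries but did not pass the test (adjusted p = 0.099). Hnrnpk stood at 1093 and 1129 CPM in control and at 696 and 1143 in the hnRNPK-KD-labelled libraries, so that replicate 2 did not show a lower level. This group is therefore named by its label as the hnRNPK-KD-labelled libraries, and no direction against control is read from them as an effect of less Hnrnpk. All 15 embryonic stem cell markers examined were detected in each library, at a summed level of 7346 to 10303 CPM. The lowest sums were 7346 and 8357 CPM in Sox2-KD, against 8893 and 8500 in control. Of these markers, Utf1 was called higher and Sox2 lower in Sox2-KD than in control. Of 10 trophectoderm markers tested, 7 were higher in Sox2-KD than in control, and their list summed to 205 and 341 CPM there against 97.2 and 106 in control. Much of that sum came from the keratin genes Krt8 and Krt18, whereas Cdx2 had 19.7 and 35.1 CPM in control and 6.09 and 6.21 in Sox2-KD (log2FC -2.15, adjusted p = 0.052). Of 10 primitive endoderm markers tested, 2 were higher and 1 lower in Sox2-KD, while fibroblast markers summed to at most 6.19 CPM and neuroectoderm markers to 48.6 to 89.0 CPM in all libraries. The part of these other cell types in the values below was not tested, and in bulk RNA fewer cells of a type and less RNA per cell cannot be told apart.

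The 32 genes were abundant in E14 ESCs, with a median of 321 CPM against 15.1 over all genes tested, and together they took 0.955% to 1.11% of all counts. In total CPM, Srrm2, Srsf3 and Sf3b1 were highest and Clk3, Clk4 and Srsf4 lowest. Srrm2, which encodes a large speckle scaffold protein, had 961 and 815 CPM in control, 974 and 896 in Sox2-KD, 982 and 1150 in the hnRNPK-KD-labelled libraries and 1018 and 1084 in Cdk9-KD. Srsf4, which encodes a large SR protein, had 30.4 and 36.0 CPM in control, 32.2 and 32.8 in Sox2-KD, 33.8 and 36.9 in the hnRNPK-KD-labelled libraries and 34.7 and 34.6 in Cdk9-KD. Clk3, a CLK kinase gene, had 52.3 and 41.7 CPM in control, 46.5 and 48.2 in Sox2-KD, 48.9 and 56.6 in the hnRNPK-KD-labelled libraries and 48.4 and 49.0 in Cdk9-KD. For each of these genes the control libraries overlapped the range of at least 1 knockdown group.

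Scaled to exonic length, the order of levels was led by 4 SR protein genes. Mean levels over the 8 libraries were 137 CPM per kb for Srsf5, 136 for Srsf2, 119 for Srsf7 and 104 for Srsf1. Both U2AF subunits followed, U2af1 at 92.3 and U2af2 at 89.6 CPM per kb, with Srsf3 at 86.6, Srsf6 at 86.4 and the helicase gene Ddx39b at 84.9. Srrm2 (76.7), Rbm39 (65.0), Sf3b1 (56.9), Srrm1 (50.5), Tra2a (47.4), Srsf10 (45.9) and Tra2b (40.1) formed the middle of the order, in CPM per kb. Son (37.8), Srsf9 (34.5), Pnn (32.4), Srsf11 (31.5), Luc7l3 (30.8), Acin1 (29.0), Luc7l (23.1), Rbm25 (22.3) and Luc7l2 (20.2) came next. The kinase genes were at the bottom with Srsf4 (9.52), at 17.4 CPM per kb for Clk1, 12.6 for Srpk1, 12.3 for Clk2, 8.21 for Clk4, 5.79 for Clk3 and 5.29 for Srpk2. For each of the 31 pairs of neighbours in this order, the ranges over the 8 libraries overlapped. Whether neighbours kept their order within each library was not examined. Exonic length was that of all annotated transcripts together, and reads shared with other genes make some levels uncertain: exons of other genes on the opposite strand cover 43.0% of Srsf4 and 25.3% of Srsf2, and the strand setting of the counting was not given in the sources used here.

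**Figure D1:**
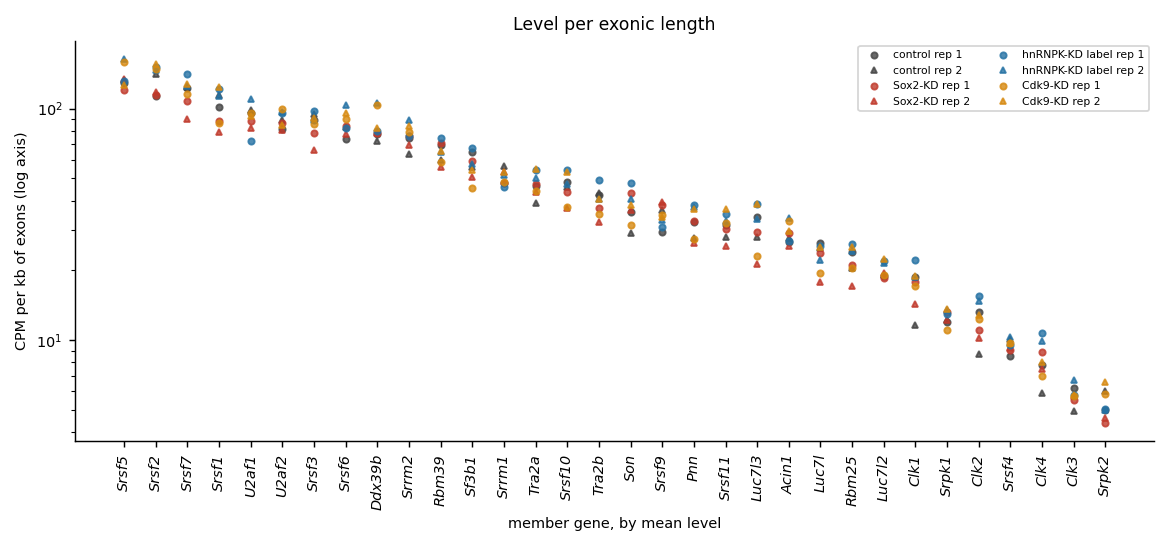
Level of each of the 32 genes in CPM per kb of exons (log axis), 1 point for each of the 8 libraries, with genes ordered by their mean. Levels run from 137 CPM per kb for Srsf5 to 5.29 for Srpk2, and the points of each gene overlap those of its neighbours.

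In Sox2-KD against control E14 ESCs, none of the 32 genes was called at an adjusted p under 0.05 and a log2FC beyond 0.6 in either direction, against 4.32% of all genes tested. Their log2FC ran from -0.37 to 0.30, with a median of -0.03 against 0.02 over all genes. A log2FC below 0 was found for 20 genes (62.5%, against 48.2% of all genes), and for 13 when libraries were scaled by their totals. At an unadjusted p under 0.05 only Srsf3 passed in edgeR, against 19.3% of all genes, and DESeq2 gave 2, against 17%. Both Sox2-KD libraries were below both control libraries for 8 genes (25.0%, against 25.2% of all genes) and above both for 3 (9.38%, against 28.1%). The 95% interval of the change lay within 1 log2 unit of 0 for all 32 genes and within 0.6 for 22 of them (68.8%, against 25.0% of all genes). A doubling or halving of total RNA was therefore outside the interval for each gene, whereas smaller changes were not excluded for many. The interval shares over all genes, here and below, include many genes of lower level and are not at like abundance.

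The lowest log2FC in Sox2-KD belonged to 3 classical SR protein genes. Srsf1, which encodes a founding SR protein, had 583 and 654 CPM in control, 504 and 450 in Sox2-KD, 697 and 650 in the hnRNPK-KD-labelled libraries and 496 and 707 in Cdk9-KD. Srsf3, which encodes a small SR protein that also acts in mRNA export, had 709 and 746 CPM in control, 621 and 523 in Sox2-KD, 772 and 704 in the hnRNPK-KD-labelled libraries and 677 and 719 in Cdk9-KD. Srsf7, which encodes an SR protein with a zinc knuckle, had 435 and 438 CPM in control, 385 and 320 in Sox2-KD, 500 and 445 in the hnRNPK-KD-labelled libraries and 409 and 453 in Cdk9-KD. For all 3 genes both Sox2-KD libraries were below both control libraries and below both hnRNPK-KD-labelled libraries, while for Srsf1 the lower Cdk9-KD library fell within the Sox2-KD range.

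Against control the log2FC in Sox2-KD was -0.37 for Srsf1 (95% interval -0.76 to 0.01, adjusted p = 0.28), -0.34 for Srsf3 (-0.66 to -0.03, adjusted p = 0.21) and -0.31 for Srsf7 (-0.63 to 0.01, adjusted p = 0.28). Without Sox2-KD replicate 2 it was -0.23 for Srsf3 and -0.19 for Srsf7. Tra2b, a Tra2 gene whose protein binds purine-rich exonic sequences, had 390 and 401 CPM in control, 342 and 300 in Sox2-KD, 453 and 377 in the hnRNPK-KD-labelled libraries and 324 and 374 in Cdk9-KD. Its log2FC in Sox2-KD was -0.30 (-0.63 to 0.03, adjusted p = 0.32). At the other end were Son, Clk4 and Srsf9, with a log2FC of 0.30, 0.25 and 0.24 and adjusted p-values of 0.37, 0.50 and 0.44. These values rest on single control libraries: without control replicate 2 they came to 0.15 for Son and 0.057 for Clk4, and without control replicate 1 to 0.074 for Srsf9. Srsf9, which encodes a short SR protein, had 48.4 and 60.3 CPM in control, 63.3 and 65.2 in Sox2-KD, 50.9 and 54.8 in the hnRNPK-KD-labelled libraries and 57.1 and 56.4 in Cdk9-KD. It was the only one of the 32 genes with both Sox2-KD libraries above both hnRNPK-KD-labelled libraries.

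**Figure D2:**
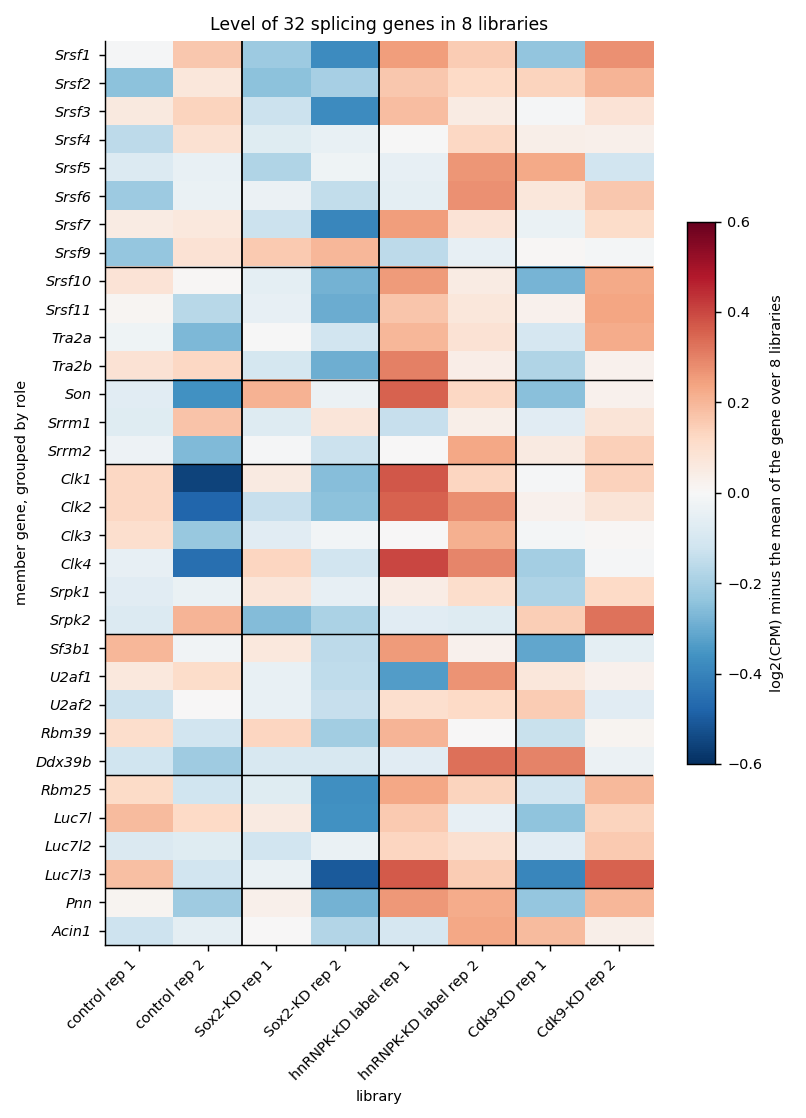
Log2(CPM) of each gene in each library minus the mean of that gene over the 8 libraries, with genes in rows by role (horizontal lines) and libraries in columns by group (vertical lines). Sox2-KD replicate 2 was the lowest library for 13 genes and replicate 1 of the hnRNPK-KD-labelled libraries the highest for 13, while Clk1, Clk2 and Clk4 were lowest in control replicate 2.

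In the hnRNPK-KD-labelled libraries against control, none of the 32 genes and 0% of all genes were called. At an unadjusted p under 0.05, Son, Clk2 and Clk4 passed in edgeR, each at a higher level, against 8.03% of all genes. DESeq2 also gave 3, against 6.74%. The median log2FC of the 32 genes was 0.17 against 0.02 over all genes, and 27 (84.4%) had a log2FC above 0 against 52.4% of all genes. Both libraries were above both control libraries for 15 genes (46.9%, against 20.4% of all genes) and below both for none (against 18.7%). The 95% interval lay within 0.6 of 0 for 24 genes (75.0%, against 33.0% of all genes). Without replicate 2, the library in which Hnrnpk was not lower, 25 genes had a log2FC above 0 and 22 lay above both control libraries (68.8%, against 37.9% of all genes).

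The genes with the highest log2FC there were 2 kinase genes and a speckle gene. Clk4, a kinase gene much of whose RNA is known to keep introns, had 45.2 and 34.3 CPM in control, 51.2 and 43.3 in Sox2-KD, 61.8 and 57.4 in the hnRNPK-KD-labelled libraries and 40.7 and 46.7 in Cdk9-KD. Clk2, which encodes another nuclear SR protein kinase, had 70.0 and 46.1 CPM in control, 58.3 and 54.1 in Sox2-KD, 82.0 and 77.8 in the hnRNPK-KD-labelled libraries and 65.3 and 67.6 in Cdk9-KD. Son, whose protein forms the core of nuclear speckles, had 532 and 433 CPM in control, 644 and 545 in Sox2-KD, 713 and 608 in the hnRNPK-KD-labelled libraries and 468 and 568 in Cdk9-KD. For these 3 genes both hnRNPK-KD-labelled libraries were above both control libraries, and for Clk2 and Clk4 they were above the other 6 libraries.

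The log2FC was 0.59 for Clk4 (95% interval 0.19 to 0.98, adjusted p = 0.48), 0.46 for Clk2 (0.04 to 0.88, adjusted p = 0.58) and 0.45 for Son (0.08 to 0.83, adjusted p = 0.54). Clk1, the most abundant CLK gene, had 152 and 94.6 CPM in control, 145 and 116 in Sox2-KD, 180 and 152 in the hnRNPK-KD-labelled libraries and 139 and 153 in Cdk9-KD, with a log2FC of 0.43 (-0.04 to 0.90, adjusted p = 0.65) in the hnRNPK-KD-labelled libraries. At the low end were Srpk2, Srrm1 and Luc7l, with a log2FC of -0.14, -0.11 and -0.10. Srpk2, which encodes a cytoplasmic SR protein kinase, had 68.9 and 83.9 CPM in control, 60.8 and 64.0 in Sox2-KD, 69.6 and 69.2 in the hnRNPK-KD-labelled libraries and 80.9 and 91.4 in Cdk9-KD. Srrm1, a splicing coactivator gene, had 350 and 414 CPM in control, 349 and 387 in Sox2-KD, 334 and 377 in the hnRNPK-KD-labelled libraries and 351 and 388 in Cdk9-KD. Both lay within or across the control range in the hnRNPK-KD-labelled libraries.

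The CLK values depend on control replicate 2. In control, replicate 1 exceeded replicate 2 by 1.60-fold for Clk1, 1.52-fold for Clk2, 1.32-fold for Clk4 and 1.26-fold for Clk3, and the summed CLK level was 319 and 217 CPM in control against 262 to 373 in the other groups. Without control replicate 2 the log2FC in the hnRNPK-KD-labelled libraries was 0.39 for Clk4, 0.18 for Clk2 and 0.12 for Clk1. The same library stood apart in nuclear long noncoding RNAs: the 6 examined summed to 803 CPM there and to 1555 to 2092 in the other 7, and Malat1, which resides in speckles, had 109 CPM there and 343 to 969 elsewhere. The part of this in the CLK values was not tested. Within the family, Clk1 gave 43.7% to 48.4% of the CLK level, Clk2 19.4% to 22.6%, Clk3 13.1% to 19.2% and Clk4 13.9% to 17.03%. Srpk1, which encodes a cytoplasmic kinase of SR proteins, had 148 and 151 CPM in control, 164 and 150 in Sox2-KD, 160 and 167 in the hnRNPK-KD-labelled libraries and 137 and 169 in Cdk9-KD.

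**Figure D3:**
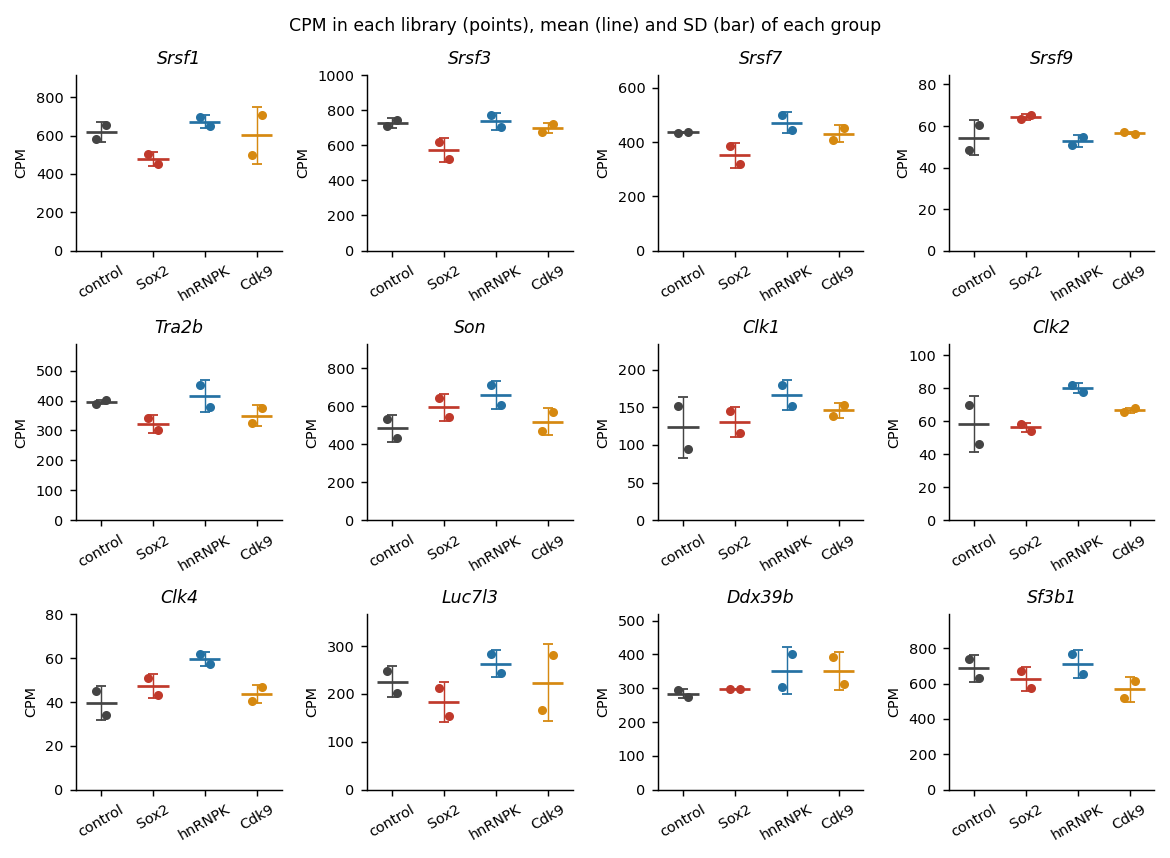
CPM of 12 of the genes in each library (points, replicate 1 on the left), with the mean (line) and SD (bar, n = 2) of each group, on axes that start at 0. Clk2 and Clk4 lie highest in the hnRNPK-KD-labelled libraries and lowest in control replicate 2, and Srsf1, Srsf3 and Srsf7 lie lowest in Sox2-KD as a group.

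In Cdk9-KD against control, none of the 32 genes was called, against 0.139% of all genes. None had an unadjusted p under 0.05 in edgeR or DESeq2, against 10.4% of all genes in edgeR and 8.74% in DESeq2. Both Cdk9-KD libraries were above both control libraries for 7 genes (21.9%, against 21.3% of all genes) and below both for 2 (6.25%, against 17.9%). The median log2FC was 0.08 against 0.02 over all genes, and the 95% interval lay within 0.6 of 0 for 28 genes (87.5%, against 30.6% of all genes). The highest log2FC were 0.31 for Ddx39b, 0.25 for Srsf2 and 0.24 for Clk1, and the lowest were -0.27 for Sf3b1, -0.20 for Luc7l and -0.18 for Tra2b, with adjusted p-values of 0.57, 0.59, 0.75, 0.59, 0.76 and 0.74. Without Cdk9-KD replicate 1 the log2FC came to 0.099 for Ddx39b, -0.054 for Luc7l and -0.11 for Tra2b, without control replicate 1 to 0.064 for Srsf2 and without control replicate 2 to -0.085 for Clk1.

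Ddx39b, which encodes an RNA helicase needed to load the U2 snRNP, had 293 and 274 CPM in control, 298 and 298 in Sox2-KD, 304 and 400 in the hnRNPK-KD-labelled libraries and 391 and 311 in Cdk9-KD. Sf3b1, the gene of the branch point factor, had 738 and 633 CPM in control, 672 and 577 in Sox2-KD, 766 and 655 in the hnRNPK-KD-labelled libraries and 518 and 616 in Cdk9-KD. For both genes the Cdk9-KD libraries were outside the control range, on opposite sides for the 2 genes. Srsf2, an SR protein gene whose product also acts in transcription elongation, had 337 and 419 CPM in control, 337 and 348 in Sox2-KD, 447 and 434 in the hnRNPK-KD-labelled libraries and 438 and 461 in Cdk9-KD. Luc7l, which encodes a U1-associated protein, had 197 and 188 CPM in control, 179 and 134 in Sox2-KD, 193 and 167 in the hnRNPK-KD-labelled libraries and 146 and 189 in Cdk9-KD.

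The replicates of each group were also compared over the 32 genes. In Cdk9-KD replicate 1 was the higher for 7 of them and replicate 2 for the rest, by 1.68-fold for Luc7l3, 1.42-fold for Srsf1 and for Srsf10 and 1.35-fold for Pnn, and the median difference between replicates was -0.15 on the log2 scale against 0.00 over all genes. In Sox2-KD replicate 1 was the higher for 24 genes, with a median difference of 0.14 against -0.01. In control replicate 1 was the higher for 16 genes (median difference 0.03 against 0.01) and in the hnRNPK-KD-labelled libraries for 20 (0.06 against 0.01). Without Cdk9-KD replicate 1 the count of genes above both control libraries was 19 (59.4%, against 39.6% of all genes), and without Cdk9-KD replicate 2 it was 9 (28.1%, against 38.4%).

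Sox2-KD was also compared directly with the hnRNPK-KD-labelled libraries, where the size of the log2FC, regardless of sign, had a median of 0.21 over the 32 genes and 0.29 over all genes. Against control the same medians were 0.09 and 0.28 in Sox2-KD, 0.17 and 0.20 in the hnRNPK-KD-labelled libraries and 0.12 and 0.22 in Cdk9-KD, so that the 32 genes were below all genes in each comparison. All genes include many of low level, with a median of 15.1 CPM against 321 for the 32 genes, and sizes at like abundance were not compared. The median coefficient of variation over the 8 libraries was 12.4%, against 13.2% for genes at least as abundant as the least abundant of the 32. In the direct comparison none of the 32 genes was called, against 5.90% of all genes. At an unadjusted p under 0.05, 7 passed in edgeR, all at a lower level in Sox2-KD, against 8.38% of all genes in that direction and 21.3% in either. DESeq2 gave 8 in both directions together, against 19.2% of all genes. With libraries scaled by their totals the count was 3 in both directions together, against 21.6% of all genes, and the smallest adjusted p was then that of Srsf9. The 7 genes were Srsf1, Srsf2, Srsf3, Srsf7, Tra2b, Clk2 and Rbm25. This count used all 8 libraries and is not given with 1 left out, where a group would hold 1 library. The median log2FC was -0.20 against -0.01 over all genes, and 30 of the 32 genes (93.8%) had a log2FC below 0 against 51.0% of all genes. Both Sox2-KD libraries were below both hnRNPK-KD-labelled libraries for 21 genes (65.6%, against 27.3% of all genes) and above both for 1 (3.12%, against 27.6%). With any 1 of the 4 libraries left out, the first count was 22 to 28, against 37.2% to 40.0% of all genes. Without Sox2-KD replicate 2 the median log2FC of the 32 genes came to -0.19, and without Sox2-KD replicate 1 to -0.30.

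By gene, the lowest log2FC of this comparison were -0.52 for Luc7l3, -0.51 for Clk2 and -0.50 for Srsf1, with adjusted p-values of 0.25, 0.15 and 0.13. Srsf7 followed at -0.42 (95% interval -0.75 to -0.10) with the smallest adjusted p, 0.12, then Rbm25 at -0.40, Tra2b at -0.37, Srsf3 at -0.37 and Srsf2 at -0.36, with adjusted p-values of 0.16 to 0.20. Without Sox2-KD replicate 2 the log2FC came to -0.46 for Clk2, -0.42 for Srsf1 and -0.39 for Srsf2. It came to -0.31 for Luc7l3, -0.30 for Srsf7, -0.26 for Rbm25 and -0.25 for Srsf3. Without hnRNPK-KD-labelled replicate 1 the log2FC of Tra2b came to -0.24. Luc7l3, a LUC7-like gene with an RS domain in its product, had 248 and 202 CPM in control, 213 and 154 in Sox2-KD, 283 and 244 in the hnRNPK-KD-labelled libraries and 167 and 280 in Cdk9-KD. It had the highest coefficient of variation of the 32 genes over the 8 libraries (21.6%), and was the only one whose 95% interval reached beyond 1 log2 unit here (-1.05 to 0.01), while 17 genes had an interval within 0.6 of 0 (53.1%, against 25.0% of all genes). Rbm25, whose product acts with the U1 snRNP at the 5' splice site, had 417 and 354 CPM in control, 366 and 298 in Sox2-KD, 452 and 422 in the hnRNPK-KD-labelled libraries and 356 and 440 in Cdk9-KD. The exceptions to the direction were Srsf9, with a log2FC of 0.28 (adjusted p = 0.33), and Srrm1, with 0.05 (adjusted p = 0.88), and Srpk1 was nearest to them at -0.06. The Sox2-KD libraries enter this comparison and that with control alike, and the hnRNPK-KD-labelled libraries likewise, so that the comparisons share samples.

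**Figure D4:**
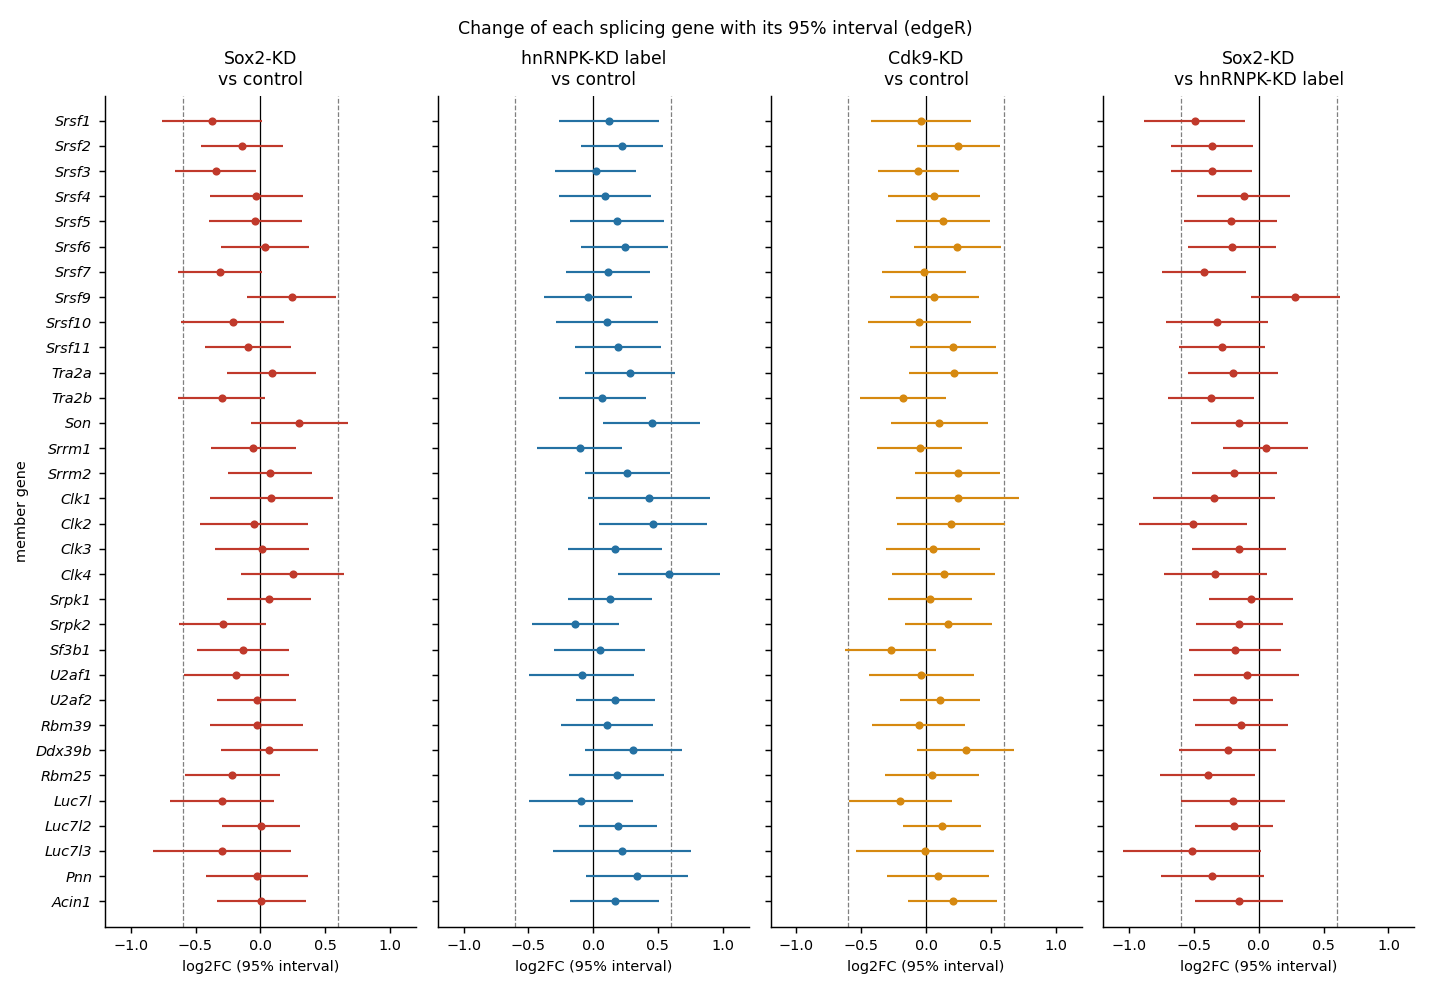
Log2FC of each gene (point) with its 95% interval (line) in the 4 comparisons, by edgeR, with dashed lines at the fold threshold of 0.6 on either side of 0. No gene passed the adjusted test, and in Sox2-KD against the hnRNPK-KD-labelled libraries 30 of the 32 points lie below 0.

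**Figure D5:**
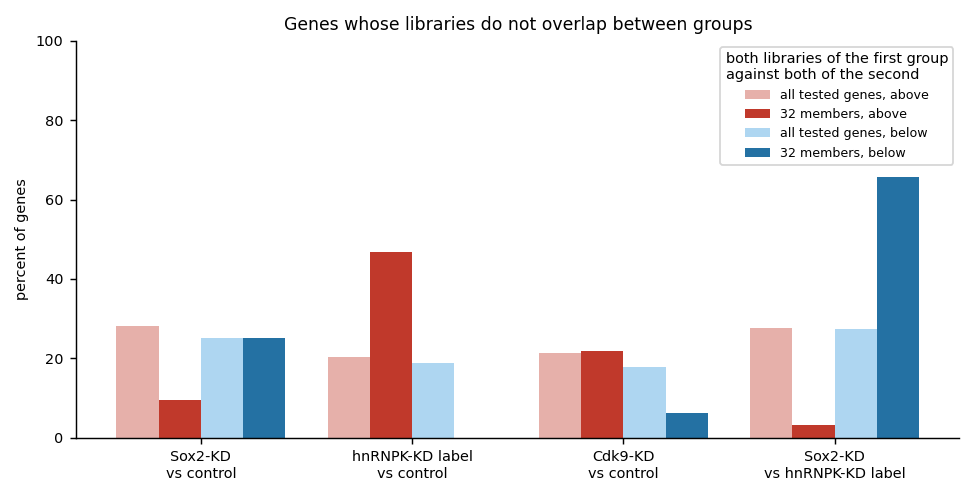
Percent of genes for which both libraries of the first group lay above (red) or below (blue) both libraries of the second, for all 16504 genes tested (light) and for the 32 genes (dark). The widest gap is in Sox2-KD against the hnRNPK-KD-labelled libraries, with 65.6% of the 32 genes below against 27.3% of all genes.

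By role, the direction in the direct comparison was shared by all groups of genes. The median log2FC was -0.29 for the 8 SR protein genes, -0.30 for the 4 SR-like and Tra2 genes, -0.15 for the 3 speckle scaffold genes, -0.24 for the 6 kinase genes, -0.19 for the 5 genes of 3' splice site factors, -0.30 for the 4 LUC7 and RBM25 genes and -0.26 for Pnn and Acin1. Of these, Pnn and Acin1 encode proteins that bind the exon junction complex. The summed level of the 8 SR protein genes was 3010 and 3283 CPM in control, 2826 and 2647 in Sox2-KD, 3423 and 3478 in the hnRNPK-KD-labelled libraries and 3183 and 3396 in Cdk9-KD, so that the Sox2-KD libraries held the lowest sums and those labelled hnRNPK-KD the highest. Across all 4 groups at once, the F-test of edgeR called none of the 32 genes, against 6.06% of all genes, and Clk4 alone had an unadjusted p under 0.05 (adjusted p = 0.21). At an unadjusted p under 0.05 the background was 20.8%.

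Every one of the 32 genes had a highest library less than 2-fold above its lowest, from 1.21-fold for Luc7l2 and for Srsf4 to 1.90-fold for Clk1. Their median coefficient of variation over the 8 libraries was 12.4%. It was 13.2% for the 5835 genes tested that were at least as abundant as Srsf4, the least abundant of the 32. That set was chosen by this lower bound alone. Among genes not given in full above, Srsf5 and Srsf6, both SR protein genes, ranged from 480 to 654 CPM (median 527) and from 355 to 500 (median 403). The SR-like genes Srsf10 and Srsf11 ranged from 262 to 380 (median 325) and from 215 to 312 (median 268), and Tra2a from 272 to 382 (median 324). U2af1, which encodes the subunit that reads the terminal AG of the intron, ranged from 189 to 287 CPM, and both of these values came from the hnRNPK-KD-labelled libraries, which differed by 1.52-fold. U2af2, whose product binds the polypyrimidine tract, ranged from 334 to 408 CPM and Rbm39, a U2AF2-like factor, from 389 to 518. Luc7l2 ranged from 224 to 271 CPM, Pnn from 151 to 221 and Acin1 from 269 to 356.

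The lists of other splicing genes held no call by edgeR in any of the 4 comparisons. Of their 112 genes tested, 13, 5, 9 and 13 had an unadjusted p under 0.05 in Sox2-KD, the hnRNPK-KD-labelled libraries, Cdk9-KD and the direct comparison. Over all genes the shares were 19.3%, 8.03%, 10.4% and 21.3% in this order. The lists held 8 genes of the U1 snRNP, 24 tested of the U2 snRNP and 3' splice site, 14 of the tri-snRNP, 34 other genes of RS-domain and speckle proteins, 12 other SR protein kinase and phosphatase genes, 8 of the exon junction complex and 12 of NMD. In Sox2-KD against the hnRNPK-KD-labelled libraries, their median log2FC was -0.22, -0.20, -0.17, -0.26, -0.18, -0.23 and 0.02 in this order, so that all lists but that of NMD lay near the -0.20 of the 32 genes. In the hnRNPK-KD-labelled libraries against control the medians were 0.21, 0.10, 0.05, 0.16, 0.05, 0.07 and 0.11. In Sox2-KD against control, Snrpb2 of the U2 snRNP had the lowest log2FC of its list at -0.57 (adjusted p = 0.076), and Nktr, a cyclophilin gene with an RS domain, had the highest log2FC of its list at 0.56.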

How the data were processed

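Poly(A) RNA-seq (150-base read pairs, MGISEQ-2000) was done on 8 E14 ESC libraries. The authors trimmed reads with Trimmomatic, aligned them with STAR (2.7.9a per the processing notes) to mm10 and counted them per gene with featureCounts 2.0.1 on GENCODE vM23, and deposited raw counts. Here, edgeR 4.0.16 (quasi-likelihood test, TMM, filterByExpr with a minimum count of 10) was fitted to all 8 libraries and adjusted over 16504 genes by the Benjamini-Hochberg method. Calls needed an adjusted p under 0.05 and a log2FC beyond 0.6. CPM were counts over TMM-scaled totals, and 95% intervals came from the same fit. Annotation was GENCODE vM21 (GRCm38). Totals were 16709201 to 17719366 counts. The fit was tested on simulated data with 200 genes set to change in Sox2-KD against control. It called 55.3% of changes of 1 log2 unit and 98.1% of those of 2, with 12 false calls. These genes were not matched in level to the 32. The 32 genes and all lists were chosen with earlier results of these data known. Values by library are given for the 3 highest and 3 lowest log2FC per comparison, the most and least abundant genes and Rbm25, chosen after its values were seen. Clk1 and Tra2b were among these by their log2FC in Cdk9-KD. Their log2FC in other comparisons was given after the values were seen. Alternatives included DESeq2 1.42.0, other scalings and filters, and each library left out.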

Additional observations from a re-analysis of the deposited data

How the results depend on the processing

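The count of the 32 genes called was 0 in each of the 4 comparisons under alternative processing. The alternatives were DESeq2, its size factors in edgeR, library totals, no filter, a minimum of 10 counts per library and a fit of the compared libraries alone. The likelihood ratio test, the replicate block and adjusted p alone were run as well. The F-test was not run for the fit of the compared libraries alone or again for adjusted p alone. In the other alternatives it also called 0. Differences between replicates 1 and 2 had correlations of -0.23 to 0.24 between groups. These values cannot settle whether the numbers pair the samples, and with the replicate block the count of calls was also 0. Scaling by library totals moved the median log2FC of the 32 genes to 0.034 in Sox2-KD against control and to -0.095 against the hnRNPK-KD-labelled libraries, where Srpk1 came to 0.047 from -0.06. With each library left out, the median ranged from -0.14 to -0.024 in Sox2-KD, from -0.012 (without control replicate 2) to 0.15 in Cdk9-KD, from 0.12 to 0.17 in the hnRNPK-KD-labelled libraries and from -0.30 to -0.19 in the direct comparison. The counts of genes outside the overlap were taken with libraries left out in the same way, after the data were seen. Below control in Sox2-KD they were 11 to 16 (34.4% to 50%, against 36.3% to 37.5% of all genes), and 8 with all libraries. Above control in Cdk9-KD they were 9 to 19 (28.1% to 59.4%, against 34.1% to 39.6%), and 7 with all. Above control in the hnRNPK-KD-labelled libraries they were 20 to 22 (62.5% to 68.8%, against 33.6% to 37.9%), and 15 with all. In the direct comparison they were 22 to 28 (68.8% to 87.5%, against 37.2% to 40%). Fewer libraries make separation easier. With each library left out, Clk1 in Cdk9-KD ranged from -0.085 (without control replicate 2) to 0.59 and Srrm1 in the hnRNPK-KD-labelled libraries from -0.24 to 0.010 (without control replicate 2). Srrm1 in the direct comparison ranged from -0.035 to 0.15 and was also below 0 (-0.027) without Sox2-KD replicate 2. The cause of these shifts was not tested. Calls needed a log2FC beyond 0.6, so that smaller changes could be called only without that threshold, where the count was 0 as well.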
